A study of Drosophila melanogaster with 9 samples.

Results

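The engulfment receptor and Rac pathway genes described here are 10 Drosophila genes: the receptor gene drpr, the integrin genes scb and Itgbn, the Draper partners ced-6, Shark and Src42A, and Crk, mbc, Ced-12 and Rac1, which lead to and include the GTPase Rac1. They were chosen by name for their known roles in phagocytosis, with earlier results of these data known. They are 10 of the 14077 genes in the files, and all 10 were among the 10870 genes with enough reads to be tested. TRAP-seq (translating ribosome affinity purification) was used, in which a GFP-tagged protein of the large ribosomal subunit is made in chosen cells and the mRNA bound to the tagged ribosomes is pulled down and sequenced. There were 3 groups of 3 libraries labelled as replicates, each from about 100 flies kept at 25°C, and p-values measure the spread between these samples only. The fed SFC (stretch follicle cell) libraries came from PG150-Gal4>UAS-Rpl10A-GFP flies aged 3 days and then given fresh yeast paste each 24 h for 2 days. The starved AFC libraries came from GR1-Gal4>UAS-Rpl10A-GFP flies held for 16 to 20 h on apple juice agar that had no yeast, and the fed AFC libraries came from GR1-Gal4>UAS-Rpl10A-GFP flies aged and given yeast on the fed SFC schedule. AFC stands for all follicle cells, the name used in the study, whereas the sample labels call the GR1 samples main body follicle cells. The GR1 driver is active in all follicle cells from stage 3 on, SFCs included, so the fed AFC and starved AFC libraries hold SFC mRNA too, and the PG150 driver is active in centripetal cells as well as SFCs. Thoraxes and abdomens were collected, not dissected ovaries, and the study notes weak activity of GR1 in the gut and of PG150 in Malpighian tubules.

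Phagocytes recognise dying cells through surface receptors. In Drosophila, Draper (drpr) and the integrin pair αPS3/βν (scb and Itgbn) pass the signal inward through adaptors and kinases. The Crk, Myoblast city (mbc) and Ced-12 module then activates Rac1, which drives the actin branching that encloses the target. In the ovary, follicle cells engulf germline cells that die when flies lack protein, and SFCs surround and help to clear the nurse cells late in oogenesis.

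Library totals were 30551253 to 45910215 estimated reads. Ribosomal RNA genes took 1.19% to 36.3% of the reads, the least in fed AFC replicate 2 and the most in fed SFC replicate 2. Replicates correlated at 0.935 to 0.952 in fed SFCs, 0.968 to 0.980 in starved AFCs and 0.938 to 0.979 in fed AFCs (Spearman, across genes). Fed AFC replicate 1 had 13253 genes with at least 10 reads, against 9273 to 10872 in the other libraries. RpL10Ab, the gene of the tagged protein, was at 1132 to 2211 CPM (counts scaled to a common library total, TMM-adjusted) in fed SFCs, 2474 to 3364 CPM in starved AFCs and 2535 to 4216 CPM in fed AFCs. The label of the SFC libraries was set beside 10 SFC markers of the study other than drpr. They summed to 825 to 1185 CPM in fed SFCs, 808 to 928 CPM in starved AFCs and 787 to 910 CPM in fed AFCs, with medians of 888 CPM in fed SFCs, 884 CPM in starved AFCs and 900.3 CPM in fed AFCs, so their sum was not higher in fed SFCs beyond the spread between libraries, and none of the 10 passed the test between fed SFCs and fed AFCs. All 10 had at least 10 reads in each library. A sum is set mostly by its most abundant genes, so it does not settle the label. The study took lower eggshell genes in SFCs as evidence that the intended cells were captured. By imaging, it also found the tagged protein in the follicle cells intended for each driver. The summed level of 3 mid and late follicle cell markers of the study was 7599 to 18970.0 CPM in fed SFCs, 5766 to 10689 CPM in starved AFCs and 6024 to 10975 CPM in fed AFCs, with medians of 14127 CPM in fed SFCs, 10420.0 CPM in starved AFCs and 10077 CPM in fed AFCs. Of these, Sox14 passed and was lower in fed SFCs than in fed AFCs (LFC -1.65, adjusted p 0.00873, edgeR with Benjamini-Hochberg adjustment). The median of the sum pointed the other way, at 14127 CPM in fed SFCs and 10077 CPM in fed AFCs, with overlapping ranges, so Sox14 does not stand for the list.

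The members spanned a wide range of levels. Crk and ced-6, both adaptor genes, were the highest per length, and Itgbn was the lowest in each library. In TPM (a share of all transcripts, per length), Crk averaged 38.0 ± 12.2 in fed SFCs, 36.7 ± 1.65 in starved AFCs and 40.8 ± 5.86 in fed AFCs (SD, n = 3 each). The TPM of ced-6 averaged 40.9 ± 14.3 in fed SFCs, 35.8 ± 14.6 in starved AFCs and 34.2 ± 3.02 in fed AFCs. Crk was above ced-6 in only 3 of the 9 libraries, so these 2 genes have no fixed order. The level of ced-6 was above that of Rac1 in 9 of 9 libraries, by 1.33 to 2.63 times.

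Over all 9 libraries the mean level of Rac1 was 19.9 TPM, that of Shark 8.40 TPM and that of Src42A 6.71 TPM. The receptor gene drpr averaged 4.97 TPM, next to Ced-12 at 4.22 TPM. Lower still were scb at 2.46 TPM, mbc at 1.98 TPM and Itgbn at 0.462 TPM. Against all genes tested, these mean levels lay at percentile 83.9 for Crk, 44.5 for drpr and 18.2 for Itgbn. Rac1 exceeded Shark, Ced-12 exceeded scb, and mbc exceeded Itgbn in 9 of 9 libraries. The neighbours Shark and Src42A, Src42A and drpr, and drpr and Ced-12 held their order in 7 of 9 libraries each, and scb was above mbc in 8 of 9. These are descriptions with no test.

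Within a library, the receptor was always far below its adaptor: the TPM of drpr was 0.0733 to 0.210 times that of ced-6. In fed SFCs this ratio was 0.111, 0.166 and 0.184, in starved AFCs 0.107, 0.175 and 0.210, and in fed AFCs 0.136, 0.0733 and 0.0816. The lowest ratios were thus those of fed AFC replicates 2 and 3. The α subunit gene scb was 1.94 to 14.4 times above the β subunit gene Itgbn in TPM.

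**Figure D1:**
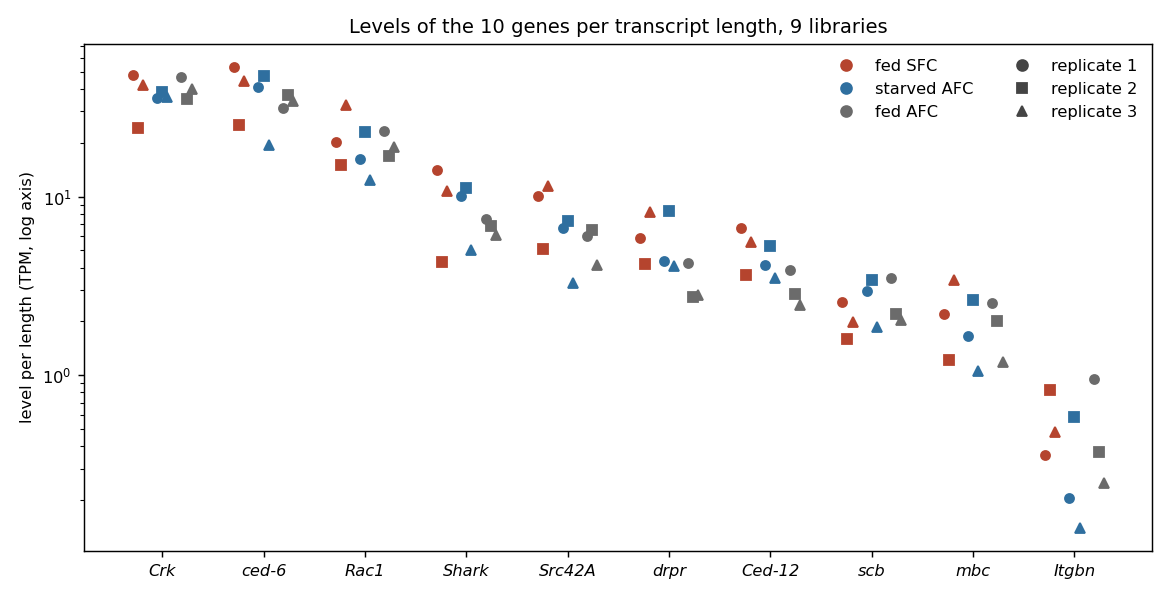
Levels per length of the 10 genes in each library (TPM, log axis), with genes ordered from left to right by their mean over 9 libraries, colours for groups and shapes for replicates. Crk and ced-6 lie together at the top, drpr and Ced-12 (4.97 and 4.22 TPM on average) lie in the middle, and Itgbn (0.462 TPM on average) lies below all the others.

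To ask which members differ where SFCs clear nurse cells, fed SFCs were compared with fed AFCs. To ask the same for engulfment after protein starvation, starved AFCs were compared with fed AFCs. Fed SFCs were also compared with starved AFCs, which tests the difference between the other comparisons, since both use the fed AFC libraries. With edgeR's quasi-likelihood test and Benjamini-Hochberg adjustment over all 10870 genes, none of the 10 members passed an adjusted p of 0.05 in any comparison. In fed SFCs against fed AFCs 2.99% of all genes passed (1.21% higher, 1.78% lower in fed SFCs), in starved AFCs against fed AFCs 0.221% (all lower in starved AFCs), and in fed SFCs against starved AFCs 2.22% (1.24% higher, 0.975% lower in fed SFCs). The first of these shares rested on single libraries, at 0.73% without fed AFC replicate 3 and 4.5% without fed AFC replicate 1. At an unadjusted p of 0.05 the members below it were 2 of 10 in fed SFCs against fed AFCs (drpr and Ced-12, both higher in fed SFCs), where 19.7% of all genes were below it, 9.06% higher and 10.6% lower in fed SFCs. The count was 0 of 10 in starved AFCs against fed AFCs (5.02% of all genes) and 1 of 10 in fed SFCs against starved AFCs (Src42A, higher in fed SFCs), where the share of all genes was 17.9%, 9.21% higher and 8.73% lower in fed SFCs. DESeq2 called 0, 0 and 1 of the 10 (Src42A) in fed SFCs against fed AFCs, starved AFCs against fed AFCs and fed SFCs against starved AFCs, beside 10.3%, 1.06% and 9.33% of all genes. limma-voom called 0 in each, beside 3.24%, 0.304% and 1.76%. In each of these tests, as in any bulk sample, fewer cells of a type and less RNA per cell cannot be told apart.

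The median LFC (log2 fold change, positive when higher in the group named first) of the members was 0.12 in fed SFCs against fed AFCs, beside -0.10 over all genes. It was -0.28 in starved AFCs against fed AFCs, beside -0.09 over all genes, and 0.25 in fed SFCs against starved AFCs, beside -0.02. The groups did not overlap for 4 of 10 members in fed SFCs against fed AFCs, where drpr and Ced-12 were higher and scb and Crk lower in every fed SFC library, and where 20.9% of all genes did not overlap (9.12% higher, 11.8% lower in fed SFCs). The number was 3 of 10 in starved AFCs against fed AFCs (drpr and Ced-12 above, Rac1 below), against 12.1% of all genes (6.17% above, 5.91% below). In fed SFCs against starved AFCs it was 2 of 10 (Src42A above, scb below), against 24.6% of all genes (11.2% above, 13.5% below). The members varied less than most genes across the 9 libraries, except Itgbn. The highest library was 1.60 times (Shark) to 2.21 times (Src42A) the lowest for the other 9 members, and 7.21 times for Itgbn, whereas the median over all genes tested was 3.02 times. Those 9 lay at percentiles 44.9 (Ced-12) to 91.6 (ced-6) of mean CPM and Itgbn at 24.9. Genes of like level were not compared, so the part of abundance in this contrast was not tested.

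**Figure D2:**
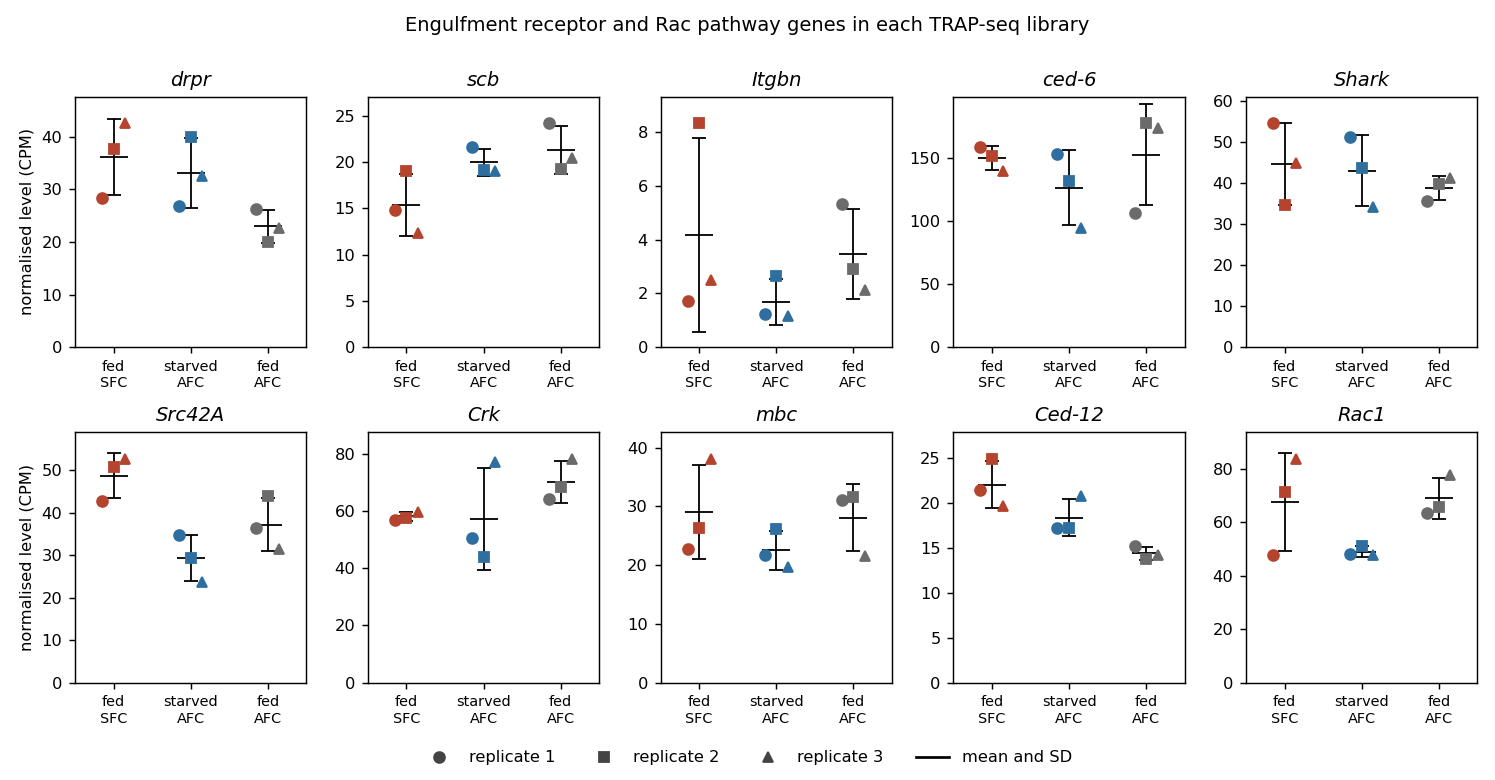
Normalised level of each of the 10 genes in each library (CPM, axes start at 0), by group from left to right, with shapes for replicates and black bars for the mean and SD (n = 3). All 3 fed SFC libraries lie above all 3 fed AFC libraries for drpr and Ced-12 and below them for scb and Crk, and all 3 starved AFC libraries lie below all 3 fed AFC libraries for Rac1.

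Of the receptor genes, drpr was the member with the smallest p in fed SFCs against fed AFCs. It lies on chromosome 3L from 1715595 to 1731107 (minus strand, with positions here and below on the BDGP6 assembly), where its exons overlap those of Oseg4 on the same strand, so reads from the overlap cannot be assigned with certainty. The level of drpr was 28.4, 37.7 and 42.5 CPM in fed SFCs, 26.9, 40.0 and 32.5 CPM in starved AFCs, and 26.3, 20.0 and 22.7 CPM in fed AFCs. Every fed SFC and starved AFC library was thus above every fed AFC library, although the lowest starved AFC value and the highest fed AFC value lay close together. The means were 36.2 ± 7.18 CPM in fed SFCs and 23.0 ± 3.16 CPM in fed AFCs (SD, n = 3 each). The difference was 1.57-fold, with a 95% confidence interval of 1.08 to 2.29 (LFC 0.66, SE 0.25, unadjusted p 0.0217, adjusted p 0.178, edgeR with Benjamini-Hochberg adjustment).

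Starved AFCs averaged 33.1 ± 6.58 CPM of drpr, 1.44-fold the fed AFC level, with an interval of 0.990 to 2.10 (LFC 0.53, SE 0.25, adjusted p 0.982, edgeR). Between fed SFCs and starved AFCs the difference in drpr was 1.09-fold, with an interval of 0.752 to 1.59 (LFC 0.13, adjusted p 0.836, edgeR), and the groups overlapped. At the SE of drpr, an observed difference of 2.02-fold would have been called in fed SFCs against fed AFCs and one of 2.64-fold in starved AFCs against fed AFCs (edgeR). These sizes are for the observed difference, and a smaller true change in this receptor is not excluded. Leaving out each library in turn gave LFCs of 0.53 to 0.82 for fed SFCs against fed AFCs.

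The integrin gene scb encodes the αPS3 subunit and lies on chromosome 2R from 15248784 to 15258498. It was at 14.8, 19.0 and 12.3 CPM in fed SFCs, 21.7, 19.2 and 19.1 CPM in starved AFCs, and 24.2, 19.3 and 20.4 CPM in fed AFCs. Fed SFCs were below both AFC groups in every library, but fed SFC replicate 2 missed the lowest value of each AFC group by little. The LFC was -0.47 against fed AFCs (0.723-fold, interval 0.487 to 1.07, adjusted p 0.344) and -0.38 against starved AFCs (0.770-fold, interval 0.520 to 1.14, adjusted p 0.487, both edgeR with Benjamini-Hochberg adjustment). Between starved and fed AFCs scb differed by 0.938-fold, with an interval of 0.633 to 1.39.

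Itgbn, which encodes the βν subunit and lies on chromosome 2L from 21053033 to 21058044, had the widest intervals of the members. Its level was 1.72, 8.31 and 2.50 CPM in fed SFCs, 1.24, 2.65 and 1.15 CPM in starved AFCs, and 5.32, 2.92 and 2.11 CPM in fed AFCs. Only fed SFC replicate 2 and fed AFC replicate 1 exceeded 3 CPM, and the groups overlapped in each comparison. Those libraries were also the highest of their group for the summed level of 6 hemocyte markers. The sums were 10.7 to 31.1 CPM in fed SFCs, 6.94 to 14.7 CPM in starved AFCs and 6.51 to 36.8 CPM in fed AFCs, and the part of hemocyte RNA in Itgbn was not tested. He, a marker that defines hemocytes, was at 0 in starved AFC replicates 1 and 2 and fed AFC replicate 2. It was highest in fed SFC replicate 2 (1.22 CPM). The level of He was 0.205 CPM in starved AFC replicate 3, where Itgbn was lowest. It was 0.183 CPM in fed AFC replicate 1 and 0.160 CPM in fed AFC replicate 3. Itgbn had 45 to 262 reads in a library. The fold difference was 1.20 in fed SFCs against fed AFCs (interval 0.369 to 3.93) and 0.488 in starved AFCs against fed AFCs (interval 0.148 to 1.61). Without fed SFC replicate 2 the LFC in fed SFCs against fed AFCs was -0.60 in place of 0.27, so no direction is given, and a 9.12-fold difference would have been needed for a call in fed SFCs against fed AFCs. The exons of Itgbn also overlap those of CG9265 on the other strand, and no source used here states that strand was kept, so reads from such overlaps cannot be told apart.

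Among the Draper partners, ced-6 encodes the adaptor that binds the receptor's intracellular tail (chromosome 2R, 9434669 to 9444937). It was at 158, 151 and 139.5 CPM in fed SFCs, 153, 131 and 94.5 CPM in starved AFCs, and 106, 177 and 173 CPM in fed AFCs. The groups overlapped, and fed AFC replicate 1 stood well below the other fed AFC libraries. The fold difference was 0.984 in fed SFCs against fed AFCs (interval 0.672 to 1.44) and 0.830 in starved AFCs against fed AFCs (interval 0.566 to 1.22). The LFC of ced-6 in fed SFCs against fed AFCs changed sign in 8 of 21 alternative settings, so no direction is given.

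Shark encodes a tyrosine kinase that binds the phosphorylated tail of Draper (chromosome 2R, 16199426 to 16202884). Its level was 54.5, 34.6 and 44.8 CPM in fed SFCs, 51.3, 43.7 and 34.1 CPM in starved AFCs, and 35.5, 39.7 and 41.3 CPM in fed AFCs. All 3 groups overlapped. The fold difference was 1.15 in fed SFCs against fed AFCs (interval 0.803 to 1.65) and 1.11 in starved AFCs against fed AFCs (interval 0.774 to 1.59). Exons of Shark overlap those of Lipt1 on the other strand.

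Src42A encodes a Src family kinase that phosphorylates Draper in glia (chromosome 2R, 5981844 to 6012795). It was the member with the smallest p of any comparison, in fed SFCs against starved AFCs. The level was 42.6, 50.7 and 52.6 CPM in fed SFCs, 34.7, 29.4 and 23.8 CPM in starved AFCs, and 36.3, 43.8 and 31.4 CPM in fed AFCs. Every fed SFC library was above every starved AFC library, and fed AFCs lay between with some overlap on each side. Fed SFCs averaged 48.7 ± 5.31 CPM and starved AFCs 29.3 ± 5.43 CPM (SD, n = 3 each), a difference of 1.66-fold with an interval of 1.17 to 2.35 (LFC 0.73, SE 0.23, unadjusted p 0.00791, adjusted p 0.130, edgeR with Benjamini-Hochberg adjustment). DESeq2 gave an adjusted p of 0.0409 for the same difference. Against fed AFCs the LFC of Src42A was 0.39 in fed SFCs (interval 0.925- to 1.85-fold) and -0.34 in starved AFCs (interval 0.556- to 1.11-fold), and neither passed the test.

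In the module that activates Rac1, Crk encodes an adaptor with SH2 and SH3 domains (chromosome 4, 210224 to 213165). The level of Crk was 56.9, 57.6 and 59.7 CPM in fed SFCs, 50.4, 43.8 and 77.2 CPM in starved AFCs, and 64.0, 68.2 and 78.1 CPM in fed AFCs. The 3 fed SFC values lay close together, below all fed AFC values, whereas starved AFC replicate 3 was as high as the fed AFC libraries. The fold difference in fed SFCs against fed AFCs was 0.828, with an interval of 0.584 to 1.18 (LFC -0.27, adjusted p 0.526, edgeR).

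The exchange factor gene mbc encodes the fly DOCK180 protein (chromosome 3R, 23781765 to 23801634). It was at 22.7, 26.3 and 38.1 CPM in fed SFCs, 21.7, 26.2 and 19.7 CPM in starved AFCs, and 31.2, 31.6 and 21.5 CPM in fed AFCs, and all groups overlapped. The intervals of the fold difference were 0.688 to 1.55 in fed SFCs and 0.534 to 1.20 in starved AFCs, both against fed AFCs.

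Ced-12, the ELMO partner of Myoblast city (chromosome 2L, 12097838 to 12100839), had the second smallest p of the members in fed SFCs against fed AFCs. It was at 21.5, 24.9 and 19.7 CPM in fed SFCs, 17.2, 17.2 and 20.8 CPM in starved AFCs, and 15.2, 13.8 and 14.2 CPM in fed AFCs. All fed SFC and starved AFC libraries were above all fed AFC libraries. The means were 22.0 ± 2.64 CPM in fed SFCs and 14.4 ± 0.709 CPM in fed AFCs (SD, n = 3 each), a difference of 1.53-fold with an interval of 1.05 to 2.22 (LFC 0.61, SE 0.25, unadjusted p 0.0286, adjusted p 0.201, edgeR with Benjamini-Hochberg adjustment). Starved AFCs averaged 18.4 ± 2.06 CPM, 1.28-fold the fed AFC level with an interval of 0.879 to 1.85. Exons of Ced-12 overlap those of Patsas on the other strand.

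Rac1 itself lies on chromosome 3L from 1300879 to 1302683. It was at 47.7, 71.5 and 83.8 CPM in fed SFCs, 48.0, 51.3 and 48.0 CPM in starved AFCs, and 63.6, 65.7 and 77.6 CPM in fed AFCs. All starved AFC libraries were below all fed AFC libraries, and fed SFC replicate 1 was as low as the starved AFC libraries while the other 2 were not. Starved AFCs averaged 49.1 ± 1.91 CPM and fed AFCs 69.0 ± 7.57 CPM (SD, n = 3 each), a difference of 0.712-fold with an interval of 0.504 to 1.005 (LFC -0.49, SE 0.23, unadjusted p 0.0532, adjusted p 0.982, edgeR with Benjamini-Hochberg adjustment). This was the smallest p of the 10 members in the starvation comparison. In fed SFCs against fed AFCs the fold difference in Rac1 was 0.981, with an interval of 0.695 to 1.38.

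**Figure D3:**
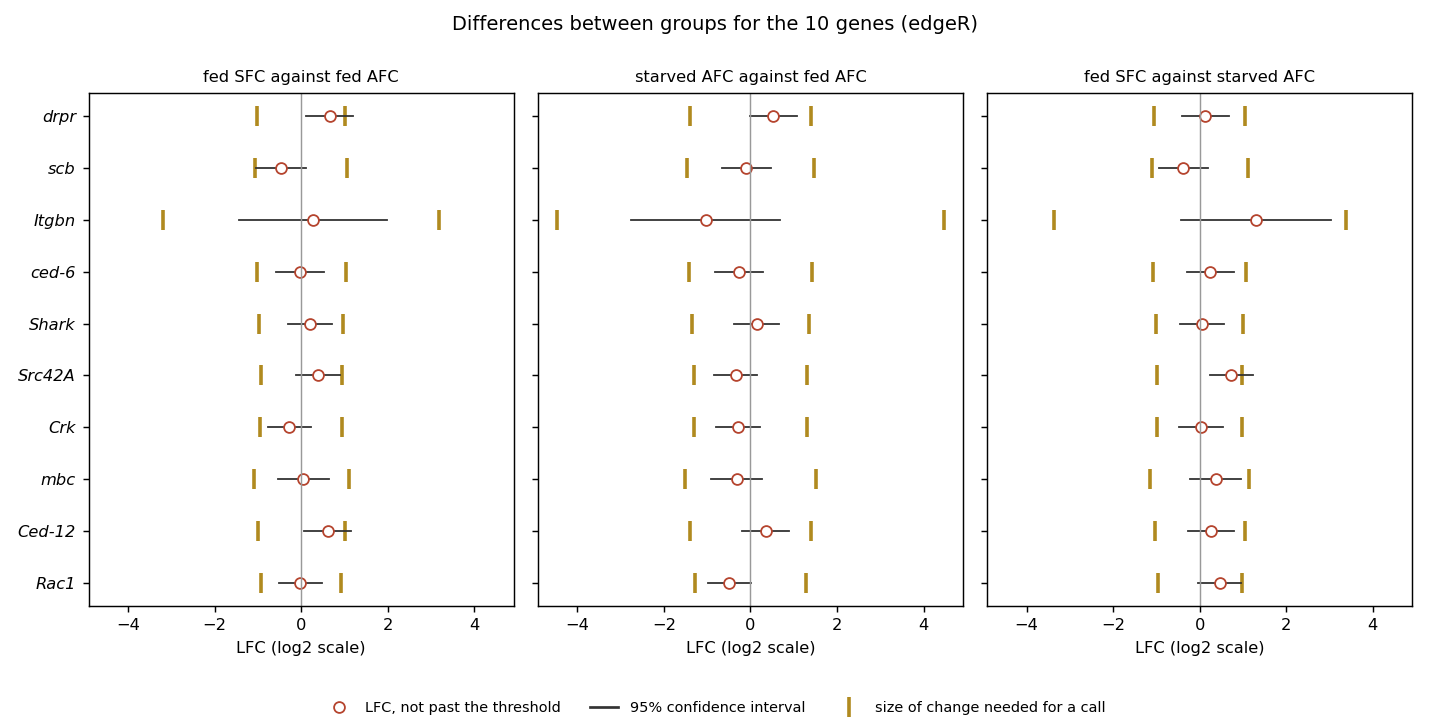
LFC of each of the 10 genes in the 3 comparisons (open points, edgeR), with its 95% confidence interval (black line) and the size of change that would have been called at that gene's SE (gold ticks). No point lies beyond its ticks, and the intervals of drpr and Ced-12 in fed SFCs against fed AFCs and of Src42A in fed SFCs against starved AFCs exclude 0.

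The profile of drpr over the 9 libraries was set beside that of every other gene tested, by the root mean square difference of log2 CPM after each gene was centred on its mean. The 3 genes nearest to drpr were CG15099 (0.14), Fip1 (0.14), which encodes a factor of mRNA polyadenylation, and Pdha (0.15), a pyruvate dehydrogenase subunit gene. The nearest member was Ced-12 at 0.25, the gene ranked 197 of all genes by this distance, and the median over all genes was 0.64. ced-6, which acts directly on the receptor, was at 0.53 and Itgbn at 0.87. These distances describe 9 libraries and say nothing of shared control.

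Reads were also divided among the transcripts of each gene. drpr has 6 annotated transcripts, and drpr-RA carried most of the level in each library, at 2.25 to 6.83 TPM. The share of drpr-RA was 71.1%, 100% and 83.4% of drpr TPM in fed SFCs, 74.1%, 68.9% and 85.5% in starved AFCs, and 53.0%, 86.0% and 84.5% in fed AFCs. The long forms drpr-RB, drpr-RE and drpr-RF hold coding exons of 1040 bases (chromosome 3L, 1718706 to 1719745) and 247 bases (1719923 to 1720169) that drpr-RA, drpr-RC and drpr-RD lack. These exons code for part of the extracellular region of Draper. drpr-RA has a coding length of 1782 bases and drpr-RB one of 3093 bases, and all 6 transcripts share the same first exon.

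The summed share of the long forms was 28.9%, 0% and 16.6% in fed SFCs, 25.9%, 31.1% and 14.5% in starved AFCs, and 47.0%, 14.0% and 15.5% in fed AFCs. The groups overlapped, and fed SFC replicate 2, with 0 TPM in the long forms, and fed AFC replicate 1 were the extremes. The mean difference was -10.4 percentage points in fed SFCs against fed AFCs (exact permutation test, two-sided, p = 0.6) and -1.68 points in starved AFCs against fed AFCs (p = 0.9). With 3 libraries against 3 the smallest p this exact test allows is 0.1. An exon of 33 bases (1716675 to 1716707), which codes for 11 residues of the intracellular part, is a separate exon in drpr-RA, drpr-RD and drpr-RE. drpr-RC and drpr-RF hold these bases within a longer exon, and drpr-RB lacks them. drpr-RC, drpr-RD and drpr-RE were at 0 TPM in all 9 libraries, so all short-form TPM was that of a transcript with this exon.

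Crk was also carried mainly by short coding forms. Crk-RG, with a coding length of 252 bases, made up 56.9%, 82.8% and 36.9% of Crk TPM in fed SFCs, 61.7%, 52.7% and 39.9% in starved AFCs, and 52.4%, 78.4% and 69.1% in fed AFCs. Crk-RC, whose coding length of 813 bases is the longest of the gene and is shared with Crk-RA alone (0 TPM throughout), made up 20.4%, 11.9% and 20.7% in fed SFCs, 9.46%, 17.3% and 27.2% in starved AFCs, and 20.0%, 0.822% and 1.30% in fed AFCs. The shares of Crk-RC overlapped, since that of fed AFC replicate 1 was as high as those of fed SFCs, while those of the other fed AFC libraries were the lowest of all. Fed SFCs minus fed AFCs gave 10.3 percentage points (exact permutation test, two-sided, p = 0.2). Crk-RC stood at 0.290 to 9.83 TPM, so the high TPM of Crk in the order of levels is mostly that of Crk-RG and Crk-RH, which lack the coding exon from 211590 to 211794.

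Of ced-6, ced-6-RC made up 75.7% to 92.5% of the TPM. Its share averaged 80.5 ± 4.77% in fed SFCs, 83.3 ± 6.0% in starved AFCs and 90.2 ± 2.13% in fed AFCs (SD, n = 3 each), and every fed SFC library was below every fed AFC library. The difference of -9.69 percentage points between fed SFCs and fed AFCs reached the smallest p possible (exact permutation test, two-sided, p = 0.1, adjusted p 0.48 over 24 comparisons of shares). ced-6-RB, which encodes the same protein, had the opposite order, at 12.3 ± 3.50% in fed SFCs, 10.7 ± 2.87% in starved AFCs and 3.15 ± 3.29% in fed AFCs. For mbc, the share of mbc-RB, which differs from mbc-RA by a coding exon of 114 bases (chromosome 3R, 23796385 to 23796498), varied widely within each group, 0% to 67.1% in fed SFCs, 0% to 59.1% in starved AFCs and 6.62% to 44.7% in fed AFCs. Src42A-RA made up 78.6% to 99.9% of Src42A. Its share averaged 98.8 ± 0.919% in starved AFCs and 90.4 ± 10.2% in fed AFCs. This difference, and that of Src42A-RB, also gave p = 0.1 (exact permutation test, two-sided, adjusted p 0.48). Shark and Ced-12 have 1 transcript each, and Itgbn-RA and Rac1-RB took all reads of their genes.

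**Figure D4:**
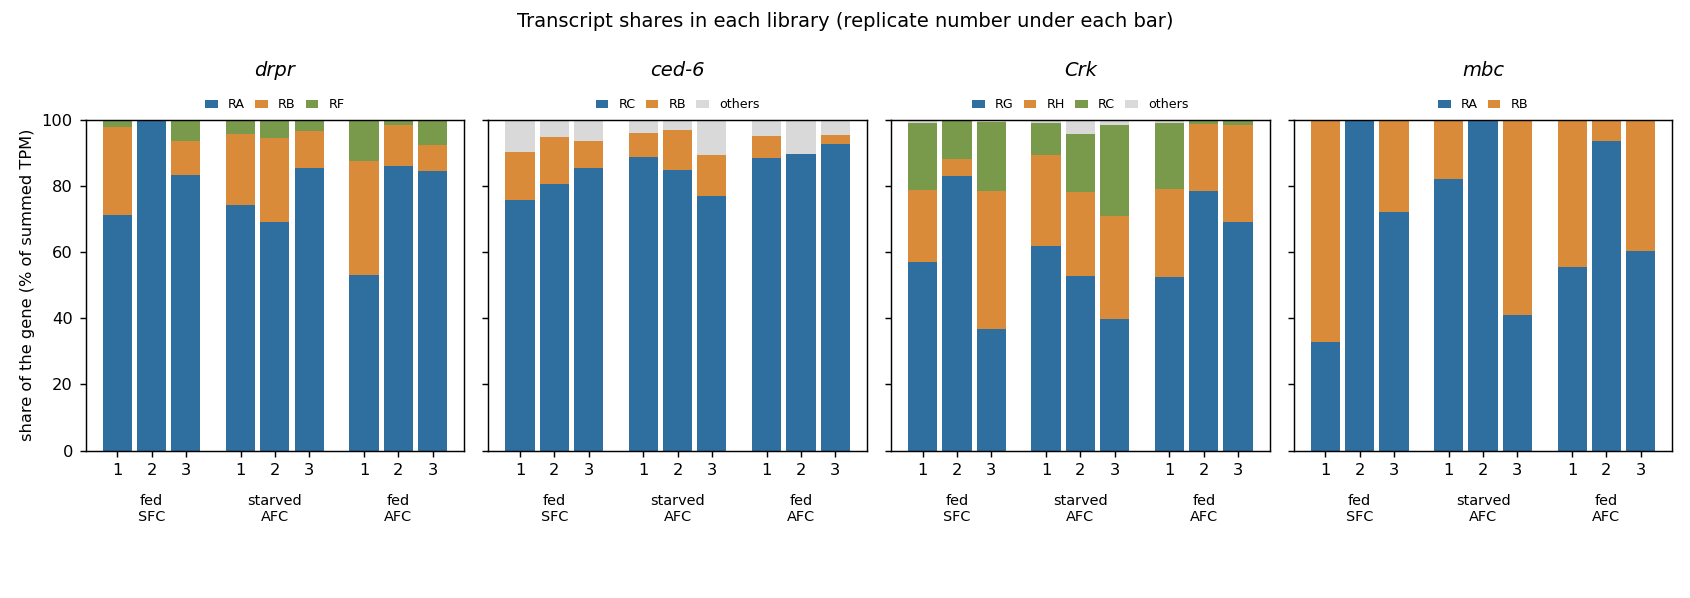
Share of each transcript in the summed TPM of drpr, ced-6, Crk and mbc (%, stacked bars), 1 bar per library, with groups from left to right. drpr-RA is the main transcript of drpr in each library (53.0% to 100%), and the shares of mbc vary more within groups than between them.

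Beyond the 10 members, 57 other genes of the pathway in 7 lists were followed, and all 57 were tested. In fed SFCs against fed AFCs 1 of 57 passed an adjusted p of 0.05 (edgeR), Arpc4, which fell, and none passed in starved AFCs against fed AFCs or in fed SFCs against starved AFCs. At an unadjusted p of 0.05 the counts were 9 of 57 in fed SFCs against fed AFCs (15.8%, beside 19.7% of all genes), 0 in starved AFCs against fed AFCs (beside 5.02%) and 14 in fed SFCs against starved AFCs (24.6%, beside 17.9%). DESeq2 called 4, 0 and 9 in the same comparisons, beside 10.3%, 1.06% and 9.33% of all genes, and limma-voom 1, 0 and 0. The median LFC of the 57 was 0.11 in fed SFCs against fed AFCs, -0.05 in starved AFCs against fed AFCs and 0.08 in fed SFCs against starved AFCs.

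The actin branching machinery downstream of Rac1 was the list with the smallest p. Arpc4, a subunit of the Arp2/3 complex that nucleates branched actin (chromosome 2L, 6125132 to 6125911), was at 104, 85.9 and 64.8 CPM in fed SFCs, 163, 137 and 219 CPM in starved AFCs, and 180.3, 233 and 229.8 CPM in fed AFCs. Every fed SFC library was below every library of both AFC groups. It was 0.396-fold in fed SFCs against fed AFCs, with an interval of 0.269 to 0.582 (LFC -1.34, SE 0.26, adjusted p 0.0161, edgeR with Benjamini-Hochberg adjustment), and 0.490-fold against starved AFCs (LFC -1.03, adjusted p 0.0602). Arpc4 lost its call against fed AFCs without fed SFC replicate 2 (adjusted p 0.106), fed SFC replicate 3 (0.0664), fed AFC replicate 2 (0.0509) or fed AFC replicate 3 (0.0890), with LFCs of -1.29, -1.17, -1.23 and -1.26.

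The other 13 genes of the list did not pass the test in any comparison, and 4 of the 14 genes were below an unadjusted p of 0.05 and lower in fed SFCs than in fed AFCs, as were 10.6% of all genes. Besides Arpc4 these were Arpc1 (LFC -0.84, adjusted p 0.0649), Arpc5 (-0.59, adjusted p 0.168) and HSPC300, a small subunit of the SCAR complex (-1.16, adjusted p 0.0864, all edgeR with Benjamini-Hochberg adjustment), which were picked after their values were seen. Exons of Arpc4 and Arpc5 overlap those of other genes by 33 and 143 bases. Cyfip, another SCAR complex gene, pointed the other way at 38.9, 18.9 and 21.7 CPM in fed SFCs, 26.6, 23.7 and 18.0 CPM in starved AFCs, and 16.7, 12.4 and 14.3 CPM in fed AFCs (LFC 0.87 in fed SFCs against fed AFCs, adjusted p 0.159). The subunit genes Arpc2, Arp2 and Arp3, also picked afterwards, had LFCs of 0.07, 0.33 and 0.30 in the same comparison. The median of the 14 was 0.06, beside -0.10 over all genes. Exons of HSPC300, Arpc4, Arpc5 and Arpc1 cover 584, 712, 1070 and 1732 bases. With a trend of level over transcript length removed, the LFC of Arpc4 was -0.90 (adjusted p 0.0219, edgeR) in place of -1.34. The part of transcript length in the other genes of this list was not tested.

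**Figure D5:**
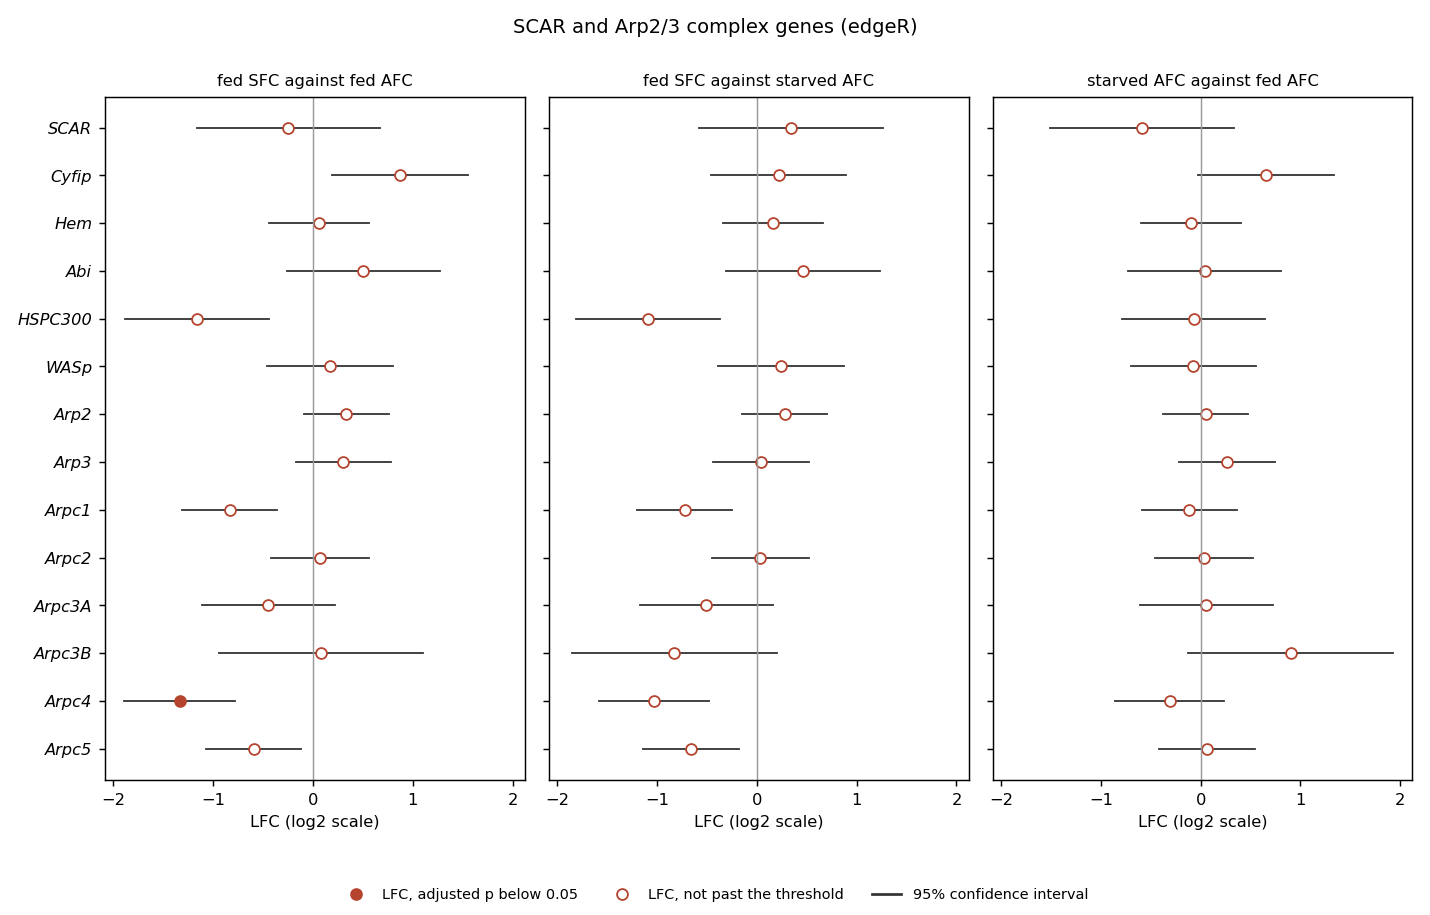
LFC of the 14 SCAR and Arp2/3 complex genes in the 3 comparisons (points, edgeR), with 95% confidence intervals (lines) and a filled point where the adjusted p was below 0.05. Arpc4 in fed SFCs against fed AFCs (LFC -1.34) is the only filled point, and Arpc1, Arpc5 and HSPC300 lie on the same side in both comparisons of fed SFCs.

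None of 9 other engulfment receptor genes passed the test in any comparison. crq, a scavenger receptor gene of fly phagocytes that is named outside the rule, was at 89.5 ± 9.41 CPM in fed SFCs, 84.6 ± 8.87 CPM in starved AFCs and 77.7 ± 13.2 CPM in fed AFCs (SD, n = 3 each). JMJD6, once named as a phosphatidylserine receptor and now known as a nuclear enzyme, had the smallest p of the list in both comparisons of fed SFCs, at 136, 117 and 115 CPM in fed SFCs, 236, 227 and 172 CPM in starved AFCs, and 156, 189.6 and 214 CPM in fed AFCs (LFC -0.60 against fed AFCs, adjusted p 0.162, and -0.78 against starved AFCs, adjusted p 0.0928, edgeR). Sr-CI, a scavenger receptor of hemocytes, had the smallest p of the list in starved AFCs against fed AFCs, where fed AFC replicate 1 stood at 6.70 CPM and the other 8 libraries between 0.898 and 1.56 CPM.

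None of the 5 genes for Draper ligands and bridging proteins passed. Calr, which encodes calreticulin, was at 346, 229 and 266 CPM in fed SFCs, 486, 442 and 475 CPM in starved AFCs, and 374, 321 and 449.6 CPM in fed AFCs, with fed SFCs below starved AFCs in every library (LFC -0.74, adjusted p 0.139, edgeR). CaBP1, a Draper ligand on dying cells, averaged 86.2 ± 11.4 CPM in starved AFCs and 66.2 ± 12.3 CPM in fed AFCs (LFC 0.38, adjusted p 0.982). None of the 5 other Draper signalling partners passed either. Src64B, the other Src family kinase gene, was at 74.1, 94.2 and 108 CPM in fed SFCs, 58.4, 54.2 and 54.3 CPM in starved AFCs, and 58.6, 95.2 and 68.7 CPM in fed AFCs (LFC 0.73 in fed SFCs against starved AFCs, adjusted p 0.133, edgeR). Sos, an exchange factor for Ras, was at 16.9, 18.3 and 49.9 CPM in fed SFCs, 11.6, 23.0 and 19.6 CPM in starved AFCs and 19.8, 8.90 and 11.7 CPM in fed AFCs, with fed SFC replicate 3 far above the other libraries (LFC 1.07 in fed SFCs against fed AFCs, adjusted p 0.223, edgeR).

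The Rac exchange factor gene trio, which did not pass in any comparison, was at 73.0, 69.3 and 66.8 CPM in fed SFCs, 45.1, 52.6 and 33.8 CPM in starved AFCs, and 51.8, 55.1 and 48.1 CPM in fed AFCs, so that every fed SFC library was above every other library (LFC 0.43 against fed AFCs, adjusted p 0.282, and 0.67 against starved AFCs, adjusted p 0.130, edgeR). Zir, a DOCK family gene like mbc, had an LFC of 0.58 in fed SFCs against fed AFCs (adjusted p 0.252). Of 8 other integrin subunit and linker genes none passed. rhea, the talin gene, averaged 66.9 ± 20.2 CPM in fed SFCs, 39.0 ± 15.5 CPM in starved AFCs and 37.4 ± 9.15 CPM in fed AFCs (LFC 0.84 in fed SFCs against fed AFCs, adjusted p 0.193). ItgaPS5, an α subunit gene, was at or below 4.69 CPM throughout and at 0 in fed SFC replicate 2. In the JNK pathway and Stat92E list none of 7 passed, and Stat92E was at 69.0, 111 and 110.0 CPM in fed SFCs, 58.8, 58.6 and 53.5 CPM in starved AFCs, and 65.2, 71.5 and 77.3 CPM in fed AFCs (LFC 0.76 in fed SFCs against starved AFCs, adjusted p 0.101).

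Markers of other tissues also differed between the groups. The sum of 9 muscle markers was 779 to 1794 CPM in fed SFCs, 323 to 502 CPM in starved AFCs and 315 to 637 CPM in fed AFCs. These markers include Act88F, up, Tm2, Mlc2 and bt, which the study reports as upregulated in its SFC translatome and treats as cytoskeleton genes. The sum of 5 fat body markers was 813 to 1945 CPM in fed SFCs, 178 to 552 CPM in starved AFCs and 308 to 1035 CPM in fed AFCs. The 6 germline markers summed to 975 to 1812 CPM in fed SFCs, 548 to 804 CPM in starved AFCs and 620.5 to 1096 CPM in fed AFCs. For 6 midgut markers it was 1877 to 3262 CPM in fed SFCs, 3128 to 4570.5 CPM in starved AFCs and 3898 to 6028 CPM in fed AFCs, and for 5 Malpighian tubule markers 521 to 729.7 CPM in fed SFCs, 282 to 699.6 CPM in starved AFCs and 226 to 485 CPM in fed AFCs. Glia, in which drpr is known to act, had 4 markers that summed to 13.7 to 39.1 CPM in fed SFCs, 11.3 to 17.0 CPM in starved AFCs and 12.2 to 26.1 CPM in fed AFCs. The part of these tissues in the differences of the members and of the other pathway genes was not tested.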

How the data were processed

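TRAP-seq libraries of 75 base single-end reads from 9 samples (3 fed SFC, 3 starved AFC, 3 fed AFC) were used, grouped by their titles. The authors quantified transcripts with Salmon 1.1.0 against the BDGP6.32 annotation and deposited, per library, estimated counts and TPM. Here the deposited estimated counts were summed per gene with the Ensembl BDGP6.54 annotation, in which 30179 of 30215 transcripts were found. All positions and transcript structures are from BDGP6.54. The deposited TPM values were summed per gene for levels per length.

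Counts were rounded, filtered (edgeR filterByExpr, minimum count 10), TMM-scaled and fitted over all 9 libraries with edgeR 4.0.16 (quasi-likelihood test) in R 4.3.3, with Benjamini-Hochberg adjustment over all genes tested and a threshold of 0.05. Intervals are 95% confidence intervals. Transcript shares were compared by two-sided exact permutation tests. Alternatives were DESeq2 1.42.0, limma-voom (limma 3.58.1), other size factors and filters, length offsets, leaving out rRNA genes, a replicate block, a stricter threshold, only the groups compared, leaving out libraries, and, chosen after the data were seen, removal of a length trend. The scripts were tested on simulated data.

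The members and lists were chosen with earlier results of these data known. All 10 members are named. Of each pathway list, genes past the threshold and the gene with the smallest p in each comparison are named, with exceptions stated. The count of 1 of these lists is not reported here. Marker lists are given as sums, and the 3 genes most like drpr are those with the smallest distance. Depth was 30551253 to 45910215 reads, and intervals reflect the spread between libraries at that depth.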

Additional observations from a re-analysis of the deposited data

How the results depend on the processing

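Over 30 differences of the 10 members and 21 alternative settings (630 values), 1 passed an adjusted p of 0.05, Src42A in fed SFCs against starved AFCs with DESeq2 (adjusted p 0.0409), so the count of members past the threshold there was 1 in place of 0. The sign changed in 29 of the 630 values, in 9 of the 30 differences, none of them called. With a length trend removed, the LFC in fed SFCs against fed AFCs was 0.41 for drpr, 0.50 for Ced-12, -0.57 for mbc and -0.74 for scb, and -0.90 for Arpc4 (adjusted p 0.0219) in place of -1.34. The adjusted p of drpr in this comparison ran over 0.0971 to 0.426 and that of Ced-12 over 0.110 to 0.456, and that of Src42A in fed SFCs against starved AFCs over 0.0409 to 0.413.

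For the 57 other pathway genes, 1 was past the threshold in fed SFCs against fed AFCs. The count was 2 with DESeq2 size factors, 2 with at least 50 counts in 3 libraries, 2 with only the groups compared, 4 with DESeq2, 3 without fed AFC replicate 1 and fed SFC replicate 2 together and 0 at an adjusted p of 0.01. Leaving out 1 library gave 0 to 3, with 0 without fed SFC replicate 2, fed SFC replicate 3, fed AFC replicate 2 or fed AFC replicate 3. In fed SFCs against starved AFCs the count of 0 became 1 with DESeq2 size factors, 1 with at least 50 counts in 3 libraries and 9 with DESeq2, and 0 to 2 on leaving out 1 library. Over all genes, 325, 24 and 241 passed in fed SFCs against fed AFCs, starved AFCs against fed AFCs and fed SFCs against starved AFCs, against 1061, 101 and 891 with DESeq2 and 87, 7 and 62 at an adjusted p of 0.01. Only the groups compared gave 15 in starved AFCs against fed AFCs. Leaving out 1 library gave 85 to 487 in fed SFCs against fed AFCs, with 174 without fed SFC replicate 2, 197 without fed SFC replicate 3, 85 without fed AFC replicate 3 and 1.77% of the genes tested, in place of 2.99%, without fed AFC replicate 2. It gave 8 to 23 in starved AFCs against fed AFCs, with 13 without fed SFC replicate 2, 10, 9 and 8 without starved AFC replicates 1, 2 and 3, and 15 and 11 without fed AFC replicates 1 and 3. It gave 111 to 383 in fed SFCs against starved AFCs, with 383 without fed SFC replicate 1, 115 without fed SFC replicate 2, 111 without starved AFC replicate 1 and 126 without starved AFC replicate 3. The cause of these differences was not tested.

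Without rRNA genes the TPM mean in fed AFCs was 40.0 for ced-6, 7.92 for Shark, 48.0 for Crk and 23.3 for Rac1, and in starved AFCs 40.6 for Crk, where the deposited scale gave 34.2, 6.79, 40.8, 19.8 and 36.7. Only means that moved by at least the SD of their group are given. All means rise on this scale, and rRNA genes held 3.19%, 32.5% and 16.1% of the TPM in the fed SFC libraries. The values given here are thus not comparable with means of other groups on the deposited scale.

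Replicate numbers did not pair the libraries. Correlations here are between libraries of different groups, of log2 CPM after each gene's group mean was removed. Same-numbered libraries correlated at -0.53 to 0.39, over 0.1 in 2 of 9 pairs, and 3 of 9 libraries correlated best with their own number. The highest correlation was between unlike numbers, at 0.64 for starved AFC replicate 2 and fed AFC replicate 1. Fed SFC replicate 3 correlated at 0.32 with fed AFC replicate 1 and at 0.25 with starved AFC replicate 2. A factor shared by these libraries across groups was not tested. With the replicate block, 186, 27 and 163 genes passed in the 3 comparisons, no member passed, and Arpc4 had an adjusted p of 0.0470.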
